A study of Homo sapiens with 18 samples.

Results

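The genes described here are the 39 rows, of 2462 small RNA features, that are named as arginine (29 rows) or histidine (10 rows) tRNA genes. They were chosen by name, with earlier results of these data known. They were read in vesicles and cells of ATG7-/- HEK293T (clone F2), ATG12-/- HEK293T (clone D9) and wild type HEK293T, with 3 libraries in each of the 6 groups. HEK293T is a human embryonic kidney line, each knockout is a single clone, and every culture, wild type included, had been without serum for 24 h. ATG7 and ATG12 belong to the machinery that joins LC3-like proteins to membrane lipids, and the study asked how that machinery bears on what extracellular vesicles carry. The ATG7 and ATG12 transcripts were not analysed here, so the genotype labels could not be checked against them. The labels call the 3 libraries of a group biological replicates without saying what was separate, so the p-values measure the spread between these libraries.

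A tRNA carries 1 amino acid to the ribosome and reads codons through its anticodon. Transcripts of RNA polymerase III are trimmed at both ends and given a CCA tail, and histidine tRNA alone then receives an extra guanosine at its 5′ end, which its synthetase needs. Arginine has several codon families read by several anticodons, and the ACG anticodon is edited to inosine. Stressed cells cut tRNAs in the anticodon loop and elsewhere, the pieces are often found in extracellular vesicles, and histidine tRNA is among those known to give long 5′ fragments. A gene name such as tRNA-Arg-CCT-4-1 gives the amino acid, the anticodon, the number of the mature sequence and the number of the gene copy.

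The arginine genes comprised 7 with the anticodon ACG, 4 with CCG, 5 with CCT, 6 with TCG, 6 with TCT and 1 with no anticodon in its name. The 10 histidine genes all carry GTG. RefSeq names on GRCh38 placed 35 of the 39, of which 12 lie on chromosome 6, and 21 of the 35 overlapped no GENCODE release 29 gene. tRNA-Arg-CCT-1-1 (chr17:75033906-75033978), tRNA-Arg-CCT-2-1 (chr17:75034431-75034503) and tRNA-Arg-TCG-3-1 (chr17:75035113-75035185) lie close together in introns of KCTD2. tRNA-Arg-CCT-4-1 (chr7:139340700-139340772) lies within FMC1 and LUC7L2 but over no exon. The histidine genes placed are 72 bases long and the arginine genes 73, except for TCT, which is among the few human tRNA families with an intron: 5 of its 6 genes are annotated at 85 to 91 bases and tRNA-Arg-TCT-4-1 at 74. No tRNA sequence was in the material used, so none is shown.

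Vesicle libraries held 1881080 to 3382605 assigned reads, of which 43.3% to 82.4% were on tRNA genes, and cell libraries held 1188388 to 1804089, of which 22.1% to 32.4% were. Arginine and histidine genes took 2.04% to 4.12% of the tRNA reads in vesicles and 5.99% to 8.33% in cells. The glutamate family tRNA-Glu-CTC alone took 54.2% to 59.8% of tRNA reads in vesicles and 9.20% to 22.9% in cells. tRNA-Glu-TTC took a further 15.8% to 17.7% in vesicles and 2.86% to 7.02% in cells. Values are normalised reads, the reads divided by 1 size factor per library, and they are relative within a library. Since tRNA is so much of a vesicle library, many of the changes below are also given relative to all tRNA reads. In vesicles that yardstick is mostly glutamate tRNA, so a family lower on it need not be low among tRNA families.

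In vesicles the copies of 4 of 5 mature tRNAs agreed more closely than independent counts would, so most gene rows there are not measurements of their own, while in cells only the copies of tRNA-Arg-ACG-1 did. The 9 copies of tRNA-His-GTG-1 differed in vesicles by 0.0585 times the variance that counting allows (chi-square per degree of freedom), and the 3 copies of tRNA-Arg-CCG-1 by 0.0144 times. In cells the same figures were 2.00 and 5.42. The copies of tRNA-Arg-TCT-3 were unequal, at 116 times in vesicles and 69.7 times in cells. Some different mature tRNAs were as close as copies: tRNA-Arg-CCT-1-1 and tRNA-Arg-CCT-2-1 differed by 0.516 times counting noise in vesicles and 0.945 times in cells. How reads matching several copies were counted is not given in the sources used here. Genes are therefore also summed by anticodon, for every tRNA of the table alike.

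The composition of the arginine reads differed between vesicles and cells, a measure that the scaling of a library cannot change. tRNA-Arg-TCG made up 24.0% ± 0.746 of arginine reads in ATG7-/- vesicles, 22.3% ± 1.12 in ATG12-/- vesicles and 19.4% ± 0.881 in wild type vesicles (SD, n = 3 each). In cells the share of tRNA-Arg-TCG was 6.41% ± 0.959 in ATG7-/-, 7.58% ± 0.295 in ATG12-/- and 6.61% ± 0.514 in wild type (SD, n = 3 each). Every vesicle library lay above every cell library, and within vesicles the 6 knockout libraries (21.3% to 24.8%) lay above the 3 wild type libraries (18.6% to 20.3%).

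tRNA-Arg-CCT went the other way. It made up 18.5% to 23.6% of arginine reads over the 9 vesicle libraries and 39.4% to 49.1% over the 9 cell libraries. In vesicles the knockouts were lower, with 19.6% to 20.9% in ATG7-/- and 18.5% to 19.7% in ATG12-/-, against 21.9% to 23.6% in wild type. tRNA-Arg-CCG held 40.8% to 44.0% in vesicles and 29.6% to 35.8% in cells. tRNA-Arg-ACG and tRNA-Arg-TCT held smaller shares, and the ACG share in ATG7-/- vesicles (6.72% to 8.54%) lay below that in every other group. With each mature tRNA counted once the ACG share was 2.64% to 3.38% in ATG7-/- vesicles and 3.59% to 5.85% in the other groups. CCG then overlapped, at 27.5% to 31.0% in vesicles and 20.8% to 28.2% in cells, while for TCG and CCT vesicles and cells, and knockout and wild type vesicles, remained apart.

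**Figure D1:**
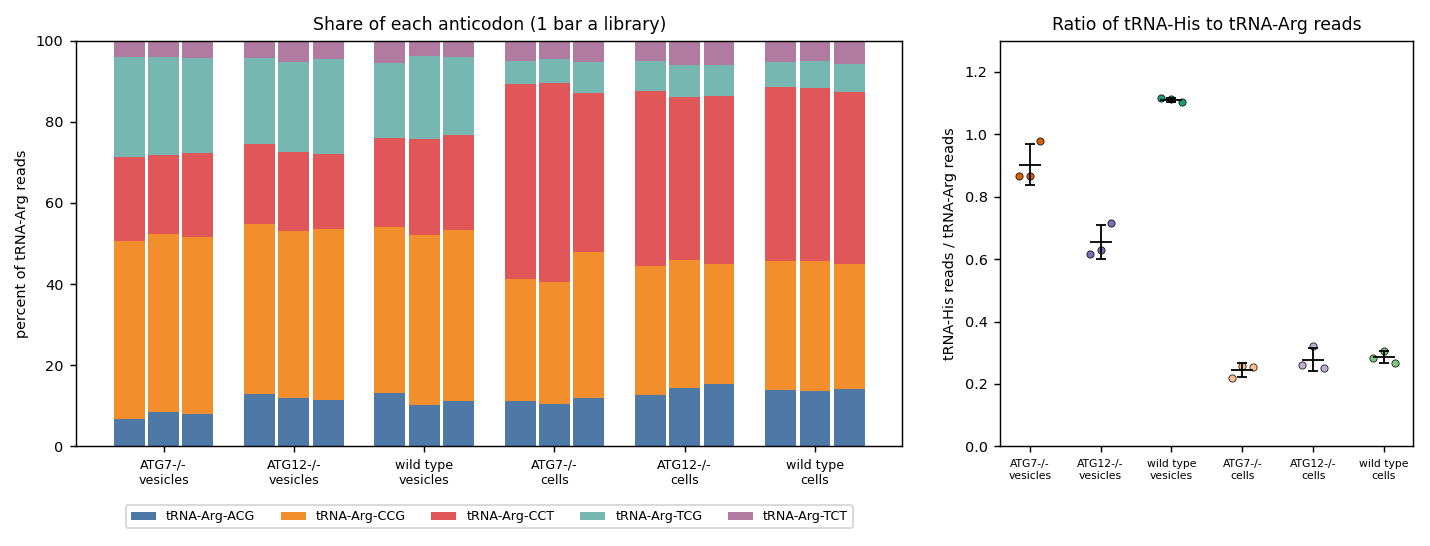
Left, the percent of tRNA-Arg reads on each anticodon, with 1 stacked bar for each of the 18 libraries. Right, the ratio of tRNA-His to tRNA-Arg reads in each library (points) with the mean and SD of each group (bars). tRNA-Arg-TCG takes 18.6% to 24.8% of the bar in vesicles, and its group means in cells are 6.41% to 7.58%, and the ratio separates the 3 vesicle groups.

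Histidine reads stood in a different proportion to arginine reads in each vesicle group. The ratio of histidine to arginine reads was 0.866, 0.865 and 0.979 in ATG7-/- vesicles, 0.618, 0.630 and 0.717 in ATG12-/- vesicles, and 1.12, 1.11 and 1.10 in wild type vesicles. No vesicle group overlapped another. In cells the ratio was 0.218 to 0.258 in ATG7-/-, 0.251 to 0.320 in ATG12-/- and 0.267 to 0.306 in wild type, all below the lowest vesicle library. With each mature tRNA counted once the level of the ratio was lower, since 9 histidine copies then count as 1, but its order among the vesicle groups was the same, at 0.149, 0.108 and 0.180 for ATG7-/-, ATG12-/- and wild type. Ratios and shares were not tested.

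Vesicles were next set against cells of the same genotype, gene by gene, with limma over all 18 libraries. On the deposited scale 35 of 37 member genes tested were higher and 1 lower in ATG7-/- vesicles, 33 higher and 1 lower in ATG12-/- vesicles, and 30 higher and 2 lower in wild type vesicles, against the cells of the same genotype. Of the 37, tRNA-Arg-CCT-5-1, tRNA-Arg-TCT-4-1 and tRNA-His-GTG-2-1 passed the filter on low values only through vesicles, so a higher level there is no support. Of the 34 others 32, 31 and 28 were higher and 1, 1 and 2 lower in ATG7-/-, ATG12-/- and wild type. Over all features, 40.0%, 39.2% and 38.9% were called higher and 42.8%, 41.1% and 42.9% lower in ATG7-/-, ATG12-/- and wild type. The median log2 fold change was 2.58, 1.72 and 1.35 for these 34 members, 0.80, 0.61 and 0.40 for the 452 other tRNA genes, and -0.03, -0.10 and -0.13 for all features, in the same order. Of the 147 genes of isotypes known for long 5′ fragments, a list that holds the histidine genes with tRNA-His-GTG-2-1, 109, 101 and 91 were higher and 18, 22 and 41 lower. Unlike the 34 members, these 147, the 452 and all features were not limited to rows that pass the filter in vesicles and in cells separately. The sets are therefore not matched.

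The direction depended on the yardstick. With library totals as the scale, the all-feature median shifted by -2.06 log2 in ATG7-/-, -2.10 in ATG12-/- and -1.49 in wild type, which left 19 of the 34 members higher and 10 lower, 1 higher and 16 lower, and 12 higher and 11 lower. With total tRNA reads as the scale the shift was -3.38, -2.84 and -2.45, which left 1 of the 34 higher in each genotype, tRNA-Arg-TCG-1-1, with 21, 33 and 23 lower. Of the calls over all features 16.4%, 13.4% and 18.3% were higher with library totals, in the same order. With total tRNA reads 6.63%, 7.55% and 8.29% of those calls were higher.

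Histidine tRNA was the member family most raised in wild type vesicles. tRNA-His-GTG reads summed to 23291, 33360 and 30916 in wild type vesicles, against 4398, 5095 and 3559 in wild type cells. The groups did not overlap, and the log2 fold change was 2.74 (SE 0.16, adjusted p = 2.65e-14), while relative to all tRNA reads it was 0.17 (SE 0.14, adjusted p = 0.241). In the knockouts the log2 fold change was 3.51 for ATG7-/- and 2.31 for ATG12-/- on the deposited scale, and relative to all tRNA it was -0.05 (adjusted p = 0.722) for ATG7-/- and -0.69 (SE 0.14, adjusted p = 4.92e-05) for ATG12-/-. With library totals the ATG12-/- value was 0.20 (adjusted p = 0.257).

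A second histidine sequence, tRNA-His-GTG-2-1, was scarce in cells and passed the filter on low values only through vesicles. Its difference is a description with no test. It had 328, 119 and 240 reads over the 3 libraries of ATG7-/-, ATG12-/- and wild type vesicles, against 8, 11 and 7 reads in the matching cells. As a ratio of reads corrected by the size factors, vesicles over cells came to 66.4 (95% interval 33.3 to 155, counting error only) in ATG7-/-, 27.3 (14.7 to 56.3) in ATG12-/- and 72.7 (34.8 to 183) in wild type. The intervals pool the 3 libraries of a group, so they leave out the spread between libraries and do not test the difference. Its ratio to the single copy tRNA-His-GTG-1-1 averaged 0.0316, 0.0300 and 0.0347 in ATG7-/-, ATG12-/- and wild type vesicles, against 0.00560, 0.00515 and 0.00329 in the matching cells, and no vesicle library reached down to a cell library.

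tRNA-Arg-TCG, which reads the CGA codon, followed histidine closely. It summed to 3883, 6102 and 5359 in wild type vesicles, against 936, 1119 and 940 in wild type cells. The groups did not overlap, with a log2 fold change of 2.34 (SE 0.16, adjusted p = 9.23e-13) that became -0.24 (SE 0.15, adjusted p = 0.118) relative to all tRNA. The log2 fold change was 3.53 in ATG7-/- and 2.62 in ATG12-/-, and relative to all tRNA -0.03 (adjusted p = 0.863) and -0.37 (adjusted p = 0.0189). Among the 58 tRNA anticodon families tested, TCG ranked 5, 8 and 7 from the top by this fold change in ATG7-/-, ATG12-/- and wild type, and histidine ranked 6, 11 and 5.

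Within the TCG family tRNA-Arg-TCG-1-1, on chromosome 15, had the largest difference. It had 3903, 3467 and 2993 normalised reads in ATG7-/- vesicles against 171, 183 and 197 in ATG7-/- cells, and 1281, 1829 and 1654 in wild type vesicles against 178, 234 and 204 in wild type cells. Vesicles and cells were far apart in every genotype, with log2 fold changes of 4.22 in ATG7-/-, 3.53 in ATG12-/- and 2.94 in wild type (SE 0.16 each). Relative to all tRNA reads tRNA-Arg-TCG-1-1 was still called higher, by 0.66, 0.55 and 0.37. On the deposited scale the family's most abundant gene, tRNA-Arg-TCG-3-1, gave 3.34, 2.46 and 2.14. tRNA-Arg-TCG-6-1, named here because it is one of the 2 members that were not tested, ran the other way, with 0, 4 and 1 reads over ATG7-/-, ATG12-/- and wild type vesicles and 13, 28 and 23 over the matching cells.

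**Figure D2:**
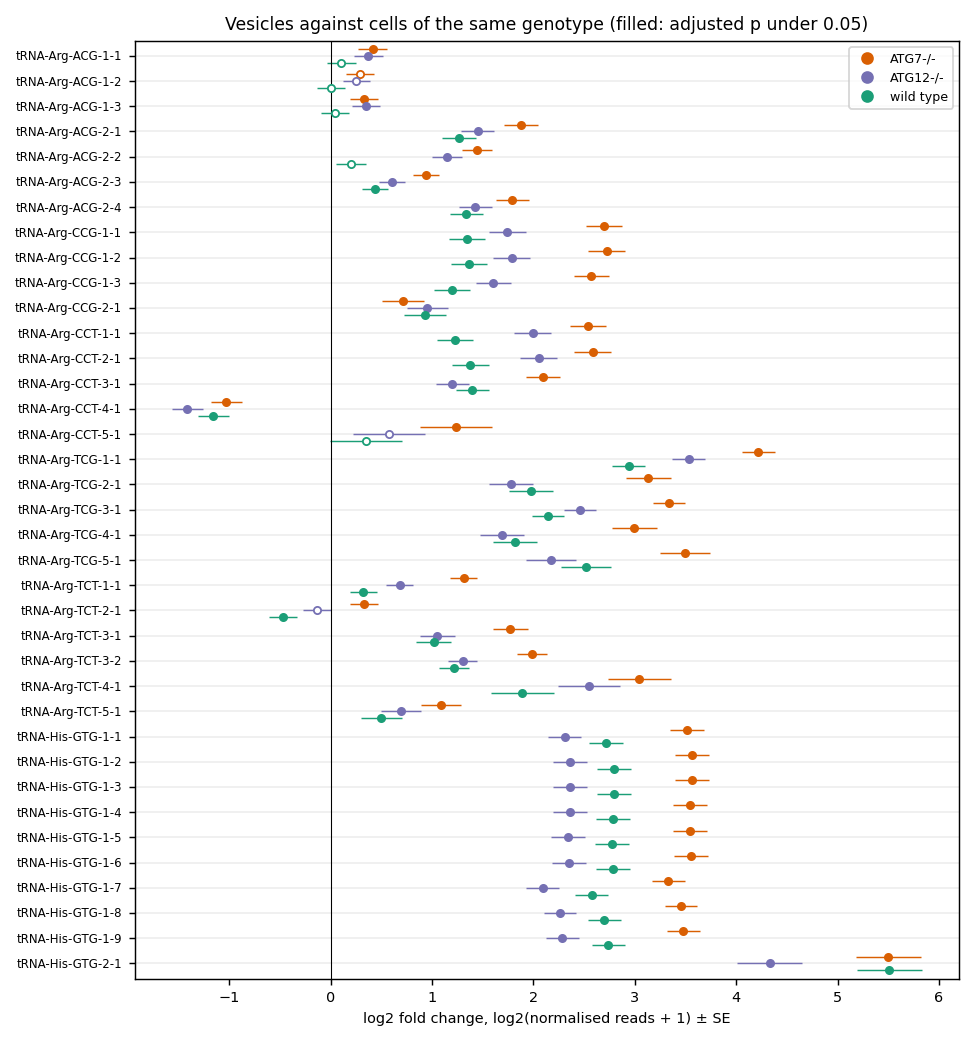
Log2 fold change of vesicles over cells of the same genotype for the 37 member genes tested (points) with its SE (lines), on log2(normalised reads + 1); filled points passed the test. tRNA-His-GTG-2-1 and tRNA-Arg-TCG-1-1 lie farthest right, and tRNA-Arg-CCT-4-1 is left of 0 in all 3 genotypes. tRNA-Arg-CCT-5-1, tRNA-Arg-TCT-4-1 and tRNA-His-GTG-2-1 passed the filter only through vesicles, so their points, filled or not, are a description and no support.

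The CCT family split. tRNA-Arg-CCT-4-1, its most abundant gene, had 2839, 2559 and 2350 normalised reads in ATG7-/- vesicles against 5429, 6161 and 4368 in ATG7-/- cells. In ATG12-/- it had 1711, 1598 and 1640 in vesicles against 4761, 4164 and 4282 in cells, and in wild type 1768, 2494 and 2401 in vesicles against 5109, 5252 and 4411 in cells. Vesicles were below cells without overlap in each genotype, with log2 fold changes of -1.03, -1.41 and -1.16 (SE 0.15 each), and relative to all tRNA -4.59, -4.40 and -3.74. tRNA-Arg-CCT-4-1 stayed lower in vesicles under all 9 alternatives and without any single library.

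tRNA-Arg-CCT-1-1, tRNA-Arg-CCT-2-1 and tRNA-Arg-CCT-3-1 were higher in vesicles on the deposited scale and lower relative to all tRNA. tRNA-Arg-CCT-1-1 had 2636, 2221 and 1995 normalised reads in ATG7-/- vesicles against 351, 406 and 415 in ATG7-/- cells, and 989, 1561 and 1476 in wild type vesicles against 558, 707 and 450 in wild type cells. Its log2 fold change was 2.54 in ATG7-/-, 1.99 in ATG12-/- and 1.23 in wild type, and that of tRNA-Arg-CCT-3-1 was 2.10, 1.20 and 1.40. Relative to all tRNA reads tRNA-Arg-CCT-1-1 was at -1.02, -0.99 and -1.35 in the same order. The ratio of tRNA-Arg-CCT-4-1 to tRNA-Arg-CCT-1-1, which needs no scaling, was 1.14 ± 0.0525 in ATG7-/- vesicles against 13.7 ± 2.78 in ATG7-/- cells, 1.25 ± 0.0710 in ATG12-/- vesicles against 13.3 ± 1.32 in ATG12-/- cells, and 1.67 ± 0.103 in wild type vesicles against 8.80 ± 1.23 in wild type cells (SD, n = 3 each).

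The CCT total hid this split. Its log2 fold change was -0.10 (SE 0.16, adjusted p = 0.544) in wild type and -0.06 (adjusted p = 0.742) in ATG12-/-. It was 0.46 (SE 0.16, adjusted p = 0.00821) in ATG7-/-, where leaving out ATG7-/- vesicle replicate 1 ended the call (0.37, adjusted p = 0.055) and TMM scaling did too (0.25, adjusted p = 0.117). edgeR and DESeq2, whose size factors were recomputed from the table of totals, called it higher in wild type (0.80 and 0.85) and in ATG12-/- (0.57 and 1.19). With library totals it was lower in ATG7-/- (-1.52), ATG12-/- (-2.16) and wild type (-1.62). Relative to all tRNA reads it was lower in each, by -3.10, -3.05 and -2.68 in ATG7-/-, ATG12-/- and wild type.

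CCG, ACG and TCT totals were higher in vesicles on the deposited scale and lower relative to all tRNA, and ACG and TCT were lower with library totals too (-1.33 to -0.62). Of all totals and other features, 21.3%, 26.4% and 26.8% were called higher in ATG7-/-, ATG12-/- and wild type. The CCG log2 fold change was 2.08, 1.49 and 1.19 in ATG7-/-, ATG12-/- and wild type, relative to all tRNA -1.49, -1.50 and -1.39, and with library totals 0.09, -0.61 and -0.33. For ACG the values were 1.08, 0.84 and 0.51 on the deposited scale and -2.48, -2.15 and -2.07 relative to all tRNA. For TCT they were 1.37, 0.77 and 0.50 on the deposited scale and -2.19, -2.22 and -2.07 relative to all tRNA.

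The ACG total was uneven inside too. In wild type the log2 fold change was 1.27 for tRNA-Arg-ACG-2-1 and 1.34 for tRNA-Arg-ACG-2-4, but 0.43 for tRNA-Arg-ACG-2-3 and 0.20 (adjusted p = 0.219) for tRNA-Arg-ACG-2-2. The 3 copies of tRNA-Arg-ACG-1 gave 0.00 to 0.10 and were not called. The ACG-2 copies, relative to all tRNA reads, were at -2.37 to -1.23 in wild type. In the TCT family tRNA-Arg-TCT-2-1 was lower in wild type vesicles on the deposited scale, with 150, 134 and 133 normalised reads against 192, 202 and 186 in wild type cells. Those groups did not overlap (log2 fold change -0.47, SE 0.14, adjusted p = 0.00344), whereas in ATG7-/- tRNA-Arg-TCT-2-1 was called higher (0.33, adjusted p = 0.0346). It was at -3.21 in ATG7-/- and -3.03 in wild type relative to all tRNA reads.

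tRNA-Arg-TCT-4-1, whose mouse counterpart is known from the brain, was read in this kidney line at low counts. It had 31, 29 and 23 reads in ATG7-/- vesicles against 5, 5 and 3 in ATG7-/- cells, and 27, 34 and 21 in ATG12-/- vesicles against 12, 11 and 8 in ATG12-/- cells. Wild type vesicles had 23, 28 and 13 reads against 13, 10 and 9 in wild type cells. Normalised reads were 30.5 to 40.9 in ATG7-/- vesicles against 2.14 to 4.12 in ATG7-/- cells, 37.2 to 45.1 in ATG12-/- vesicles against 5.25 to 7.72 in ATG12-/- cells, and 19.0 to 38.7 in wild type vesicles against 6.57 to 8.28 in wild type cells. tRNA-Arg-TCT-4-1 passed the filter on low values only through vesicles, so these values are a description with no test.

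ATG7-/- vesicles were compared with wild type vesicles over the 9 vesicle libraries. On the deposited scale 24 of 37 members were higher and 0 lower, with 33.5% of all features called higher and 28.9% lower. Relative to all tRNA reads 0 of 36 were higher and 23 lower, and 2.49% of the calls over all features were higher. The median log2 fold change on that scale was -0.60 for the members and -0.88 for all features. On the deposited scale the median of the members, 0.46, was close to the 0.47 of the 430 other tRNA genes, of which 217 were higher and 6 lower. The median over all features was 0.11. Of 144 genes of isotypes known for long 5′ fragments, 107 were higher and 0 lower, with a median of 0.67. edgeR and DESeq2 on the recovered reads each called the same 24 members higher. Without ATG7-/- vesicle replicate 1 the count was 15, and it was also 15 with TMM scaling and 7 with library totals. Of the reads in ATG7-/- vesicles 77.9% to 82.4% were on tRNA genes, against 43.3% to 54.7% in wild type vesicles, and the part of that share in these differences was not tested.

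The anticodon totals had changes of different size, which were not tested against each other. TCG reads summed to 12357, 10596 and 8936 in ATG7-/- vesicles, against 3883, 6102 and 5359 in wild type vesicles. The lowest ATG7-/- library lay above the highest wild type library, with a log2 fold change of 1.07 (SE 0.17, adjusted p = 3.68e-05). CCG followed at 0.82 (SE 0.15), TCT at 0.66 (SE 0.14), CCT at 0.58 (SE 0.16) and histidine at 0.45 (SE 0.14), each past the test, with 18.8% of all totals and other features called higher. With library totals CCT (0.20), TCT (0.28) and histidine (0.08) were not called, nor was histidine with TMM scaling (0.25). ACG, at 0.19 (SE 0.13, adjusted p = 0.188), did not pass with limma but did with edgeR (0.81) and DESeq2 (1.07), whose size factors were recomputed from the table of totals. Relative to all tRNA reads TCG was level at 0.01 (adjusted p = 0.959), CCG was -0.24 (adjusted p = 0.086), and ACG (-0.87), histidine (-0.61), CCT (-0.48) and TCT (-0.40) were lower.

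The CCG family split by mature sequence. tRNA-Arg-CCG-1-3 had 6213, 5443 and 4538 normalised reads in ATG7-/- vesicles, against 2096, 3038 and 2858 in wild type vesicles. These groups were apart, and the other copies, tRNA-Arg-CCG-1-1 and tRNA-Arg-CCG-1-2, gave almost the same values, with log2 fold changes of 1.02 to 1.03 (SE 0.15), though relative to all tRNA tRNA-Arg-CCG-1-1 was at -0.03 (adjusted p = 0.807). tRNA-Arg-CCG-2-1 had 3260, 3024 and 3017 in ATG7-/- vesicles, against 2220, 3476 and 3290 in wild type vesicles, so its groups overlapped (log2 fold change 0.08, SE 0.15, adjusted p = 0.677). The ratio of tRNA-Arg-CCG-1-1 to tRNA-Arg-CCG-2-1 was 1.90, 1.80 and 1.51 in ATG7-/- vesicles, 1.06, 1.05 and 1.15 in ATG12-/- vesicles, and 0.941, 0.872 and 0.868 in wild type vesicles, so that no group overlapped another. In cells it was 0.722, 0.235 and 0.490 in ATG7-/-, 0.714, 0.564 and 0.611 in ATG12-/-, and 0.588, 0.725 and 0.701 in wild type.

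In the CCT family tRNA-Arg-CCT-1-1 (0.79, SE 0.16), tRNA-Arg-CCT-2-1 (0.79) and tRNA-Arg-CCT-3-1 (0.64) were higher in ATG7-/- vesicles on the deposited scale, while tRNA-Arg-CCT-4-1 was not called (0.23, SE 0.14, adjusted p = 0.161). On the scale of all tRNA reads tRNA-Arg-CCT-1-1 (-0.27, adjusted p = 0.0857) and tRNA-Arg-CCT-2-1 (-0.27, adjusted p = 0.0993) were not called, and tRNA-Arg-CCT-3-1 (-0.42) and tRNA-Arg-CCT-4-1 (-0.83) were lower. In the TCT family tRNA-Arg-TCT-1-1 had 692, 687 and 619 normalised reads in ATG7-/- vesicles, against 385, 454 and 438 in wild type vesicles (log2 fold change 0.65, SE 0.13), but relative to all tRNA it was lower by -0.41 (adjusted p = 0.00486). tRNA-Arg-TCT-5-1, with 67.6 to 93.4 in ATG7-/- vesicles and 78.8 to 94.8 in wild type vesicles, overlapped.

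**Figure D3:**
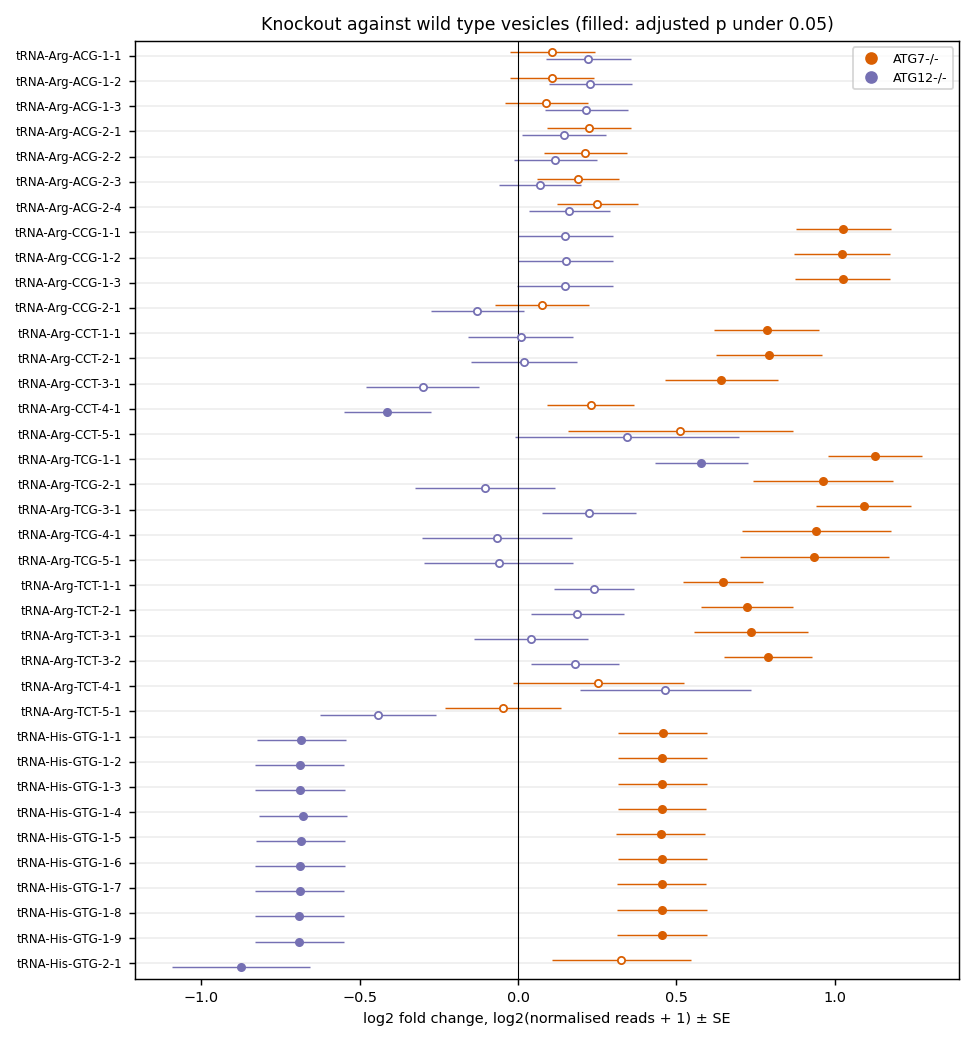
Log2 fold change of ATG7-/- and ATG12-/- vesicles over wild type vesicles for 37 member genes (points) with its SE (lines); filled points passed the test. All 10 histidine points of ATG12-/- vesicles lie between -0.87 and -0.68, and most ATG7-/- points are right of 0.

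ATG12-/- vesicles had less histidine tRNA than wild type vesicles. All 10 histidine genes were lower, with 1 arginine gene lower and 1 higher, among 37 tested, and over all features 21.1% were called lower and 22.6% higher. The summed tRNA-His-GTG reads were 16545, 17161 and 20206 in ATG12-/- vesicles, against 23291, 33360 and 30916 in wild type vesicles. The highest ATG12-/- library lay below the lowest wild type library, with a log2 fold change of -0.69 (SE 0.14, adjusted p = 0.000909), where 33.1% of all totals and other features were called lower. Since the 9 copies of tRNA-His-GTG-1 agreed within counting noise in vesicles, this is about 1 measurement and not 10. Both mature sequences were lower, with log2 fold changes of -0.69 for tRNA-His-GTG-1-9 and -0.87 (SE 0.22, adjusted p = 0.00543) for tRNA-His-GTG-2-1, which rested on 119 reads in ATG12-/- and 240 in wild type vesicles.

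The lower histidine level held on every scale tried. The log2 fold change ranged from -1.28 relative to all tRNA reads to -0.46 over 10 alternatives, with adjusted p at most 0.0232, and from -0.84 to -0.58 with each vesicle library left out in turn, with adjusted p at most 0.00725. Among 58 tRNA anticodon families it ranked 55 from the top. Of 144 genes of isotypes known for long 5′ fragments, 70 were higher and 15 lower in ATG12-/- vesicles, and the 10 histidine genes are among those 15. As a share of all tRNA reads histidine was 0.779%, 0.787% and 0.898% in ATG12-/- vesicles, against 1.70%, 2.16% and 2.16% in wild type vesicles. All tRNA took 56.4% to 60.5% of reads in ATG12-/- vesicles, against 43.3% to 54.7% in wild type vesicles.

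No arginine total was called in ATG12-/- vesicles by limma on the deposited scale. ACG (0.15), CCG (0.08), CCT (-0.19), TCG (0.28) and TCT (0.16) were not called, with adjusted p from 0.165 to 0.669, but relative to all tRNA reads ACG (-0.44), CCG (-0.52), CCT (-0.78) and TCT (-0.44) were lower and TCG was -0.31 (adjusted p = 0.0581). Without wild type vesicle replicate 1, which was the lowest of its group in CCG, CCT, TCG and histidine, CCT was called lower (-0.38, adjusted p = 0.017), as it was with library totals (-0.54, adjusted p = 0.0116). edgeR (0.41, adjusted p = 0.0309) and DESeq2 (0.50, adjusted p = 0.0252) called TCG higher, and DESeq2 called ACG (0.40) and TCT (0.42) higher too. tRNA-Arg-TCG-1-1 was higher, with 2126, 2376 and 2561 normalised reads in ATG12-/- vesicles against 1281, 1829 and 1654 in wild type vesicles. Its groups did not overlap (log2 fold change 0.58, SE 0.15, adjusted p = 0.006), though the call ended with library totals (0.22, adjusted p = 0.274) and relative to all tRNA it was -0.02 (adjusted p = 0.909). The ratio of tRNA-Arg-TCG-1-1 to tRNA-Arg-TCG-3-1 was 0.851 to 0.919 in ATG12-/- vesicles, 0.706 to 0.728 in ATG7-/- vesicles and 0.692 to 0.711 in wild type vesicles.

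tRNA-Arg-CCT-4-1 had 1711, 1598 and 1640 normalised reads in ATG12-/- vesicles, against 1768, 2494 and 2401 in wild type vesicles. The groups did not overlap by a small margin (log2 fold change -0.41, SE 0.14, adjusted p = 0.026), and relative to all tRNA it was -1.01. The call ended without any 1 of ATG12-/- vesicle replicates 1, 2 or 3 or wild type vesicle replicates 2 or 3, with log2 fold changes from -0.44 to -0.32 and adjusted p from 0.052 to 0.107.

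Set against each other, 26 of 37 members were lower and 0 higher in ATG12-/- than in ATG7-/- vesicles, with 23.3% of all features called lower and 26.6% higher. On the scale of all tRNA reads 18 of 36 were lower and 8 higher, where 86.5% of the calls over all features were higher. The median on that scale was -0.36 for the members and 0.46 for all features. On the deposited scale the 430 other tRNA genes had 162 lower and 11 higher. Histidine differed most, at a log2 fold change of -1.14 (SE 0.14, adjusted p = 1.14e-05), which over 10 alternatives lay between -1.78 and -0.68 and was called in each. TCG (-0.78), CCT (-0.76), CCG (-0.74) and TCT (-0.50) were lower too, with 8.84% of all totals and other features called lower. Relative to all tRNA CCG (-0.28), CCT (-0.30) and TCT (-0.04) were not called. ACG, at -0.04 (adjusted p = 0.828), was not called on the deposited scale but higher by 0.43 (adjusted p = 0.00542) relative to all tRNA, and lower with edgeR (-0.51) and DESeq2 (-0.67). tRNA-Arg-TCG-2-1, a scarce TCG gene, had 208, 195 and 222 normalised reads in ATG12-/- vesicles against 538, 448 and 346 in ATG7-/- vesicles (log2 fold change -1.07, SE 0.22, and -0.60 relative to all tRNA). The comparisons of either knockout with wild type share the wild type libraries, so their values are not independent of each other.

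**Figure D4:**
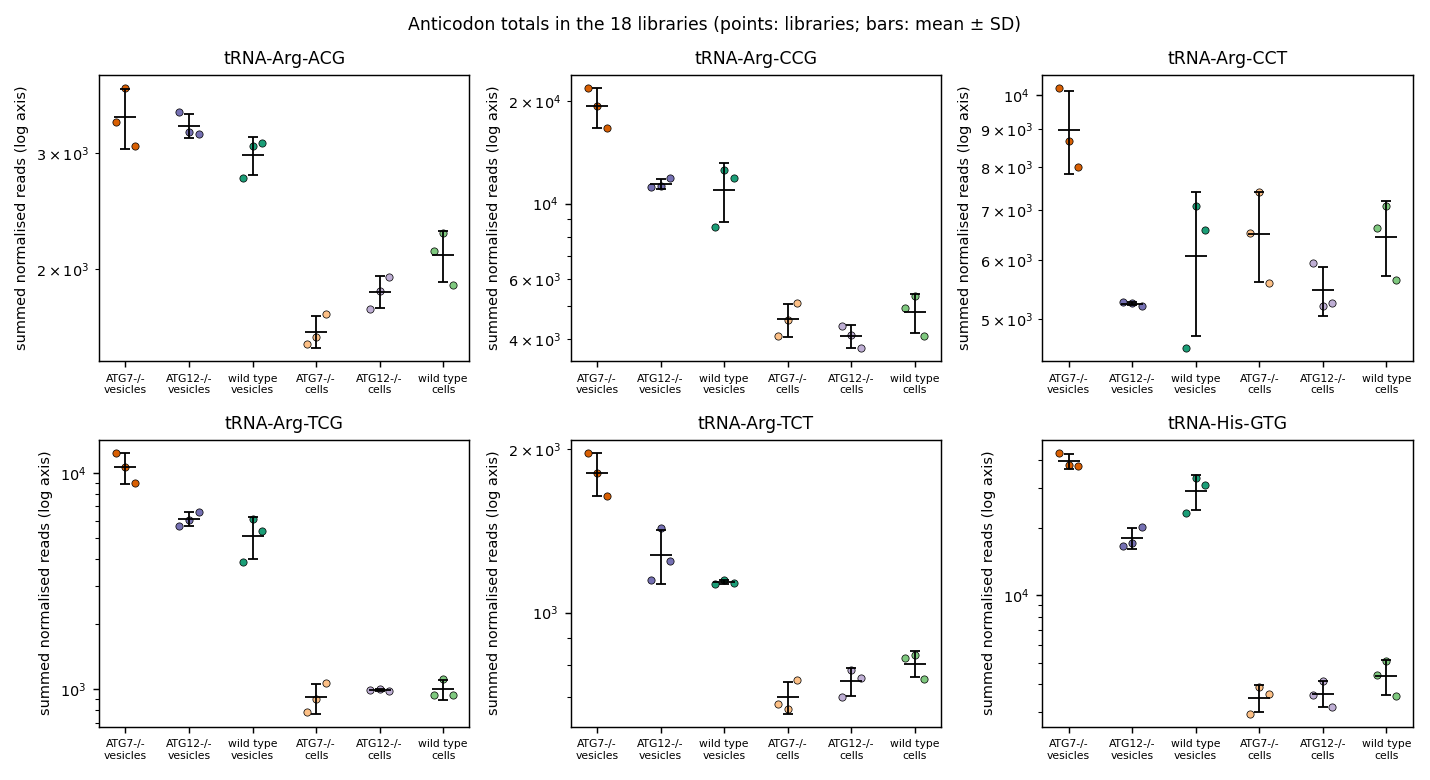
Summed normalised reads of each anticodon in the 18 libraries (points) with the mean and SD of each group (bars), on log axes that differ between panels. In histidine the 3 ATG12-/- vesicle libraries (16545 to 20206) lie below the 3 wild type vesicle libraries (23291 to 33360), which lie below ATG7-/- (37482 to 43100).

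Cells of the 3 genotypes were closer. No anticodon total was called between genotypes in cells by limma on the deposited scale, with log2 fold changes from -0.38 to 0.20, while 14.5%, 29.3% and 26.9% of all totals and other features were called in ATG7-/- against wild type, ATG12-/- against wild type and ATG12-/- against ATG7-/-. They were -0.46 to 0.10 relative to all tRNA reads, and none was called. Between the knockouts edgeR (0.44, adjusted p = 0.027) and DESeq2 (0.41, adjusted p = 0.0228) called ACG higher in ATG12-/-, and without ATG7-/- cell replicate 3 limma called CCT lower (-0.35, adjusted p = 0.0491). tRNA-Arg-ACG came nearest, with 1535, 1573 and 1708 normalised reads in ATG7-/- cells against 2130, 2268 and 1892 in wild type cells (log2 fold change -0.38, SE 0.13, adjusted p = 0.0636). Without ATG7-/- cell replicate 3 it was called (-0.43, adjusted p = 0.0345), as it was with TMM scaling (-0.40, adjusted p = 0.0424). Histidine summed to 2966, 3898 and 3609 in ATG7-/- cells and 3592, 4147 and 3186 in ATG12-/- cells, against 4398, 5095 and 3559 in wild type cells, so the groups overlapped. Its log2 fold change was -0.31 (SE 0.16, adjusted p = 0.224) in ATG7-/- and -0.25 (SE 0.16, adjusted p = 0.27) in ATG12-/- cells.

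At the level of genes, 2 of 34 members were lower and 0 higher in ATG7-/- cells, with 8.32% of all features called lower and 8.44% higher. In ATG12-/- cells 4 were lower and 0 higher, with 18.2% called lower and 7.5% higher. The ATG7-/- count was 1 without ATG7-/- cell replicate 2, ATG12-/- cell replicate 3 or wild type cell replicates 1 or 2, and the ATG12-/- count was 2 without ATG12-/- cell replicates 2 or 3 or wild type cell replicates 1 or 2. Between ATG12-/- and ATG7-/- cells 0 of 34 members were called by limma, edgeR or DESeq2, and 0 had an unadjusted p under 0.05 in limma, with 14.4% of all features called lower and 5.63% higher. Without ATG7-/- cell replicate 3 that count was 5, with 4 higher and 1 lower, and without ATG7-/- cell replicate 1 it was 1.

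tRNA-Arg-ACG-2-2 (chr6:27213844-27213916) was the clearest difference between the cells. It had 199, 210 and 256 normalised reads in ATG7-/- cells and 270, 257 and 236 in ATG12-/- cells, against 440, 537 and 390 in wild type cells. Wild type lay above both knockouts without overlap, with log2 fold changes of -1.03 (SE 0.15, adjusted p = 0.000786) for ATG7-/- and -0.83 (SE 0.15, adjusted p = 0.00253) for ATG12-/-. Both calls held under all 9 alternatives and without any single library.

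The other 3 copies of that mature tRNA were not called. tRNA-Arg-ACG-2-1 had 143, 151 and 228 normalised reads in ATG7-/- cells, 229, 216 and 206 in ATG12-/- cells, and 214, 258 and 199 in wild type cells. tRNA-Arg-ACG-2-3 (chr6:27215173-27215245), the neighbour of tRNA-Arg-ACG-2-2, had 327, 333 and 352 in ATG7-/- cells, 365, 398 and 411 in ATG12-/- cells, and 436, 441 and 384 in wild type cells. The log2 fold changes of these and of tRNA-Arg-ACG-2-4 were -0.38 to -0.20 in ATG7-/- and -0.10 to 0.07 in ATG12-/-. The 4 copies were nearly level in vesicles, where they differed by 0.536 times counting noise, and unequal in cells, at 49.5 times.

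**Figure D5:**
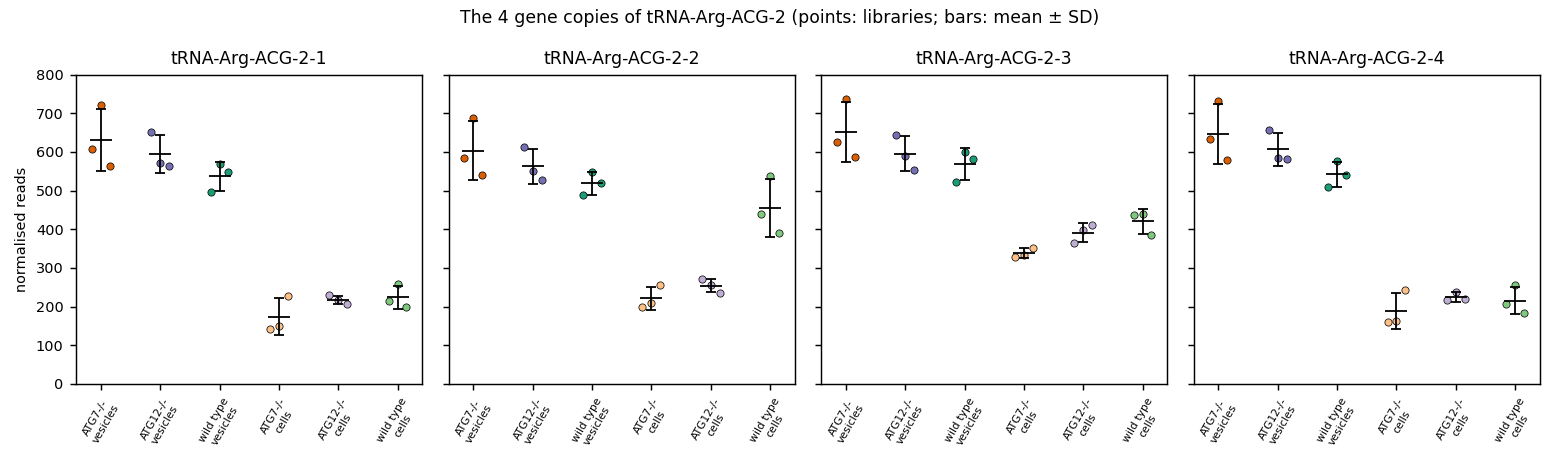
Normalised reads of the 4 gene copies of tRNA-Arg-ACG-2 in the 18 libraries (points) with the mean and SD of each group (bars). tRNA-Arg-ACG-2-2 stands at 390 to 537 in wild type cells and at 199 to 270 in knockout cells, while in vesicles the copies look alike.

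tRNA-Arg-CCT-1-1 and tRNA-Arg-CCT-2-1, neighbours in KCTD2, were lower in ATG12-/- cells. Their rows differed by 0.945 times counting noise in cells, which cannot show whether they are separate measurements. tRNA-Arg-TCG-3-1, also in KCTD2, was not called there, and the 5 TCG genes tested lay between -0.09 and 0.29. tRNA-Arg-CCT-1-1 had 386, 327 and 290 normalised reads in ATG12-/- cells, against 558, 707 and 450 in wild type cells. The groups did not overlap (log2 fold change -0.76, SE 0.17, adjusted p = 0.00807), though with library totals the call ended (-0.53, adjusted p = 0.072). tRNA-Arg-CCT-2-1 gave -0.65 (SE 0.18, adjusted p = 0.0186). It was no longer called on the scale of library totals (-0.43, adjusted p = 0.146), or without ATG12-/- cell replicate 2 or 3 or wild type cell replicate 1 or 2 (-0.65 to -0.49, adjusted p 0.0526 to 0.0888). In ATG7-/- cells tRNA-Arg-CCT-1-1 was at -0.53 (adjusted p = 0.0517).

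tRNA-Arg-TCT-5-1 had 32.1, 38.5 and 46.4 normalised reads in ATG7-/- cells and 43.8, 31.5 and 42.0 in ATG12-/- cells, against 56.1, 73.2 and 54.0 in wild type cells. Both knockouts were below wild type without overlap, with log2 fold changes of -0.64 (SE 0.20, adjusted p = 0.0461) in ATG7-/- and -0.63 (SE 0.20, adjusted p = 0.0353) in ATG12-/-. In ATG7-/- the call was lost without any 1 of the ATG7-/- cell replicates 1 and 2, ATG12-/- cell replicate 3 or the 3 wild type cell replicates (-0.72 to -0.50, adjusted p 0.0582 to 0.188), and with edgeR (adjusted p = 0.0812) and DESeq2 (adjusted p = 0.0967). Library totals (adjusted p = 0.129), no filter (0.104), a filter of 50 (0.0619) and the replicate block (0.0726) ended it too. In ATG12-/- the call was lost with library totals, TMM, edgeR and DESeq2. It was also lost there without any 1 of ATG12-/- cell replicates 2 and 3 or wild type cell replicates 1 and 2.

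Whether a knockout's change in vesicles differed from its change in cells was tested directly over all 18 libraries. For ATG7-/- the vesicle change was above the cell change for 28 of 37 members and below it for 0, with 26.3% of all features called above and 28.7% below. The 37 include tRNA-Arg-CCT-5-1, tRNA-Arg-TCT-4-1 and tRNA-His-GTG-2-1, which passed the filter only through vesicles and give no support. Relative to all tRNA reads 0 of 38 members were called above and 7 below, with 2.16% of the calls over all features above. The median on that scale was -0.21 for the members and -0.80 for all features. On the deposited scale the difference of log2 fold changes was largest for TCG, at 1.20 (SE 0.23), and smallest for ACG and CCT, at 0.57 each, where 8.65% of all totals and other features were called above and 51.9% below. Among the 58 tRNA anticodon families tested, TCG ranked 10 from the top by this difference and CCT 34, with the other member totals between. edgeR called 13 members and library totals 8. For ATG12-/- 2 of 37 members were above and 0 below, with 14.4% of all features called above and 12.0% below. Other choices gave mostly members below: 0 above and 12 below with library totals, 1 and 12 relative to all tRNA reads, 1 and 4 with TMM and 1 and 10 with edgeR. Of the calls over all features 6.32%, 13.6% and 32.4% were above with library totals, total tRNA reads and TMM. On the deposited scale the ATG12-/- count was 6 (1 above, 5 below) without wild type vesicle replicate 1, 4 without wild type vesicle replicate 2 or ATG12-/- cell replicate 1, and 1 without ATG12-/- vesicle replicates 2 or 3, ATG12-/- cell replicate 2 or wild type cell replicate 2.

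For histidine in ATG12-/- the vesicle change minus the cell change was -0.44 (SE 0.23, adjusted p = 0.145), so the lower level in vesicles was not shown to differ from the change in cells. It was called without wild type vesicle replicate 1 (-0.59, adjusted p = 0.0332), with TMM scaling (-0.63, adjusted p = 0.0295), with library totals (-1.02, adjusted p = 0.00116), with edgeR (-0.69, adjusted p = 0.035) and relative to all tRNA reads (-0.85, adjusted p = 0.00144). Over the 10 alternatives it lay between -1.02 and -0.12.

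The 2 members that were not tested in any comparison add little. tRNA-Arg-TCG-6-1 had 69 reads over the 18 libraries and tRNA-Arg-NNN-chr4-5, whose name gives no anticodon, had 2. tRNA-Arg-CCT-5-1, tested in vesicles, had 35, 26 and 22 reads over ATG7-/-, ATG12-/- and wild type vesicles and was called in neither knockout, at log2 fold changes of 0.51 (SE 0.35) and 0.34 (SE 0.35) from wild type.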

How the data were processed

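Small RNA of HEK293T vesicles and cells was read as single 50 bp reads after 12 PCR cycles, per the labels' protocols. Per the submitters' processing notes, the tools were DESeq2, bedtools, Bowtie2 2.3 and cutadapt 2.3, and the build was GRCh38. The deposited signal is normalised reads: 100% of values were whole multiples of 1 step per library (tolerance 1e-06), between 0.477 and 1.89 normalised reads per read, taken as whole reads divided by a size factor. limma 3.58.1 (R 4.3.3, intensity trend) was fitted to log2(value + 1) over features reaching 10 in at least 3 fitted libraries. Vesicle comparisons used 9 libraries, cell comparisons 9, and others 18. Calls are two-sided at a Benjamini-Hochberg adjusted p under 0.05 over all features, and fold changes of low genes are understated. The fit was checked on simulated data. edgeR 4.0.16, DESeq2 1.42.0, other scalings, filters and pseudocounts, a replicate term and single libraries left out were alternatives. Members and lists were chosen with earlier results of these data known. Named genes are each family's most abundant gene, tRNA-Arg-TCT-4-1, up to 3 called genes per direction, and genes called against their family; other copies and untested genes were named after their values were seen. Intervals cover counting error only, since PCR copies are not independent molecules.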

Additional observations from a re-analysis of the deposited data

Results flagged for a closer look

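Each value here is a knockout's log2 change in vesicles minus its log2 change in cells, on the deposited scale, named because limma's test of that difference over all 18 libraries passed. For ATG7-/- the 6 anticodon totals were all above 0, among totals and other features of which 8.65% were called above and 51.9% below. Among the 58 tRNA anticodon families tested they were not set apart. They ranked 10 (TCG), 21 (CCG), 22 (TCT), 26 (histidine), 33 (ACG) and 34 (CCT) from the top. The difference was 0.57 (SE 0.18, adjusted p = 0.00769) for tRNA-Arg-ACG, 0.89 (SE 0.22, adjusted p = 0.000892) for tRNA-Arg-CCG and 0.57 (SE 0.22, adjusted p = 0.028) for tRNA-Arg-CCT. It was 1.20 (SE 0.23, adjusted p = 8e-05) for tRNA-Arg-TCG, 0.86 (SE 0.19, adjusted p = 0.000289) for tRNA-Arg-TCT and 0.77 (SE 0.23, adjusted p = 0.00513) for tRNA-His-GTG. Relative to all tRNA reads none of these 6 was called. With library totals TCG alone stayed called, with ACG at 0.11, CCG 0.42, CCT 0.10, TCT 0.40 and histidine 0.30 (adjusted p 0.0759 to 0.716). TMM ended the calls of ACG (0.38) and CCT (0.38), no filter those of ACG (adjusted p = 0.0582) and CCT (adjusted p = 0.0781), and counting each mature tRNA once that of CCG (0.51, adjusted p = 0.0661). The CCT call was also lost without ATG7-/- vesicle replicate 1, wild type vesicle replicate 1, ATG7-/- cell replicate 3 or wild type cell replicates 1 or 2, with values of 0.37 to 0.54. Of the single genes, tRNA-Arg-CCG-1-3 differed by 1.38 (SE 0.25, adjusted p = 9.9e-05), tRNA-Arg-CCT-1-1 by 1.31 (SE 0.26, adjusted p = 0.000232) and tRNA-Arg-TCG-1-1 by 1.28 (SE 0.23, adjusted p = 9.46e-05) in ATG7-/-. With total tRNA reads none of the 3 was called, at 0.39 (adjusted p = 0.164) for tRNA-Arg-CCG-1-3, 0.33 (adjusted p = 0.217) for tRNA-Arg-CCT-1-1 and 0.30 (adjusted p = 0.271) for tRNA-Arg-TCG-1-1.

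For ATG12-/- the difference was 0.95 (SE 0.21, adjusted p = 0.00227) for tRNA-Arg-ACG-2-2, where the cell values of ATG12-/- lay below wild type, and the call ended with library totals (0.36, adjusted p = 0.267). For tRNA-Arg-CCT-1-1 it was 0.77 (SE 0.26, adjusted p = 0.0311), a call lost without ATG12-/- vesicle replicates 2 or 3, wild type vesicle replicate 1, ATG12-/- cell replicates 2 or 3 or wild type cell replicates 1 or 2, with values of 0.56 to 0.77. The tRNA-Arg-CCT-1-1 call also ended with library totals (0.18, adjusted p = 0.67), total tRNA reads (0.35, adjusted p = 0.254), TMM (0.57, adjusted p = 0.103), edgeR (0.43, adjusted p = 0.21) and no filter (0.77, adjusted p = 0.0673). The part of the tRNA share of a library in these differences was not tested.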

How the results depend on the processing

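Of 2331 values of single genes and anticodons recomputed under the alternatives, 2122 kept their direction and their side of the threshold. Most of the 2331 came from leaving out single libraries, where 28 lost their call, 4 became called and 0 reversed. The scale mattered far more. With total tRNA reads 34 of 101 values reversed, 14 lost their call and 4 became called, and with library totals 9, 18 and 4 of 101 did. The causes of the changes were not tested. Counts of called members moved by over 1.5 times as follows. With library totals they were 7 for ATG7-/- against wild type vesicles, 1 for ATG7-/- and 1 for ATG12-/- cells, 20 for ATG12-/- vesicles against cells, and 8 and 12 for the vesicle change minus the cell change in ATG7-/- and ATG12-/-. With TMM they were 15 for ATG7-/- vesicles and 5 for the ATG12-/- difference of changes. With total tRNA reads they were 34 for ATG12-/- vesicles and 4 and 12 for ATG7-/- and ATG12-/- cells, all lower, and 7 and 13 for the differences of changes in ATG7-/- and ATG12-/-. Of the calls over all features 10.1% were higher in ATG12-/- vesicles, and 39.6% and 8.27% in ATG7-/- and ATG12-/- cells. Counts of like size that changed direction on that scale are not in this list. They became 0 higher and 23 lower for ATG7-/- vesicles. For vesicles against cells in ATG7-/-, ATG12-/- and wild type they became 2 higher each, with 23, 35 and 25 lower. For ATG7-/- cells the count was 1 with no filter, a filter of 50, edgeR or DESeq2. For the differences of changes edgeR gave 13 in ATG7-/- and 11 in ATG12-/-, and no filter gave 1 in ATG12-/-. The ATG12-/- counts of 12, 13, 5 and 11 were mostly of members below. With each mature tRNA counted once, of 21, the counts were 13 and 4 for ATG7-/- and ATG12-/- against wild type vesicles, 15 between the knockouts, 21, 19 and 19 for vesicles against cells in ATG7-/-, ATG12-/- and wild type, and 15 and 1 for the differences of changes.

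Leaving out 1 library at a time gave 15 to 24 for ATG7-/- vesicles, 11 to 14 for ATG12-/- vesicles, 24 to 27 between the knockout vesicles, 1 to 3 and 2 to 4 for ATG7-/- and ATG12-/- cells, and 0 to 5 between the knockout cells. It gave 34 to 37, 32 to 35 and 30 to 32 for vesicles against cells in ATG7-/-, ATG12-/- and wild type, and 25 to 29 and 1 to 6 for the differences of changes in ATG7-/- and ATG12-/-. The counts for these comparisons, here and above, are over sets that include tRNA-Arg-CCT-5-1, tRNA-Arg-TCT-4-1 and tRNA-His-GTG-2-1. Those genes passed the filter only through vesicles and give no support.

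Signs that turned with total tRNA reads were, against wild type vesicles, ACG -0.87, CCG -0.24, CCT -0.48, TCT -0.40, histidine -0.61 and tRNA-Arg-CCG-1-1 -0.0329 in ATG7-/-, and ACG -0.44, CCG -0.52, TCT -0.44 and tRNA-Arg-TCG-1-1 -0.0155 in ATG12-/-. ACG turned to 0.43 between the knockout vesicles. For vesicles against cells they were ACG -2.48, CCG -1.49, CCT -3.10, TCG -0.0257, TCT -2.19, histidine -0.0505 and tRNA-Arg-TCT-4-1 -0.15 in ATG7-/-, ACG -2.15, CCG -1.50, TCG -0.37, TCT -2.22, histidine -0.69 and tRNA-Arg-TCT-4-1 -0.24 in ATG12-/-, and ACG -2.07, CCG -1.39, TCG -0.24, TCT -2.07 and tRNA-Arg-TCT-4-1 -0.51 in wild type. The values of tRNA-Arg-TCT-4-1, which passed the filter only through vesicles, are a description. The ATG7-/- differences of changes turned to ACG -0.41, CCG -0.10, CCT -0.42, TCT -0.12 and histidine -0.22. With library totals, vesicles against cells turned to ACG -0.91, CCT -1.52 and TCT -0.62 in ATG7-/-, ACG -1.26, CCG -0.61 and TCT -1.33 in ATG12-/-, and ACG -1.01, CCG -0.33 and TCT -1.02 in wild type. CCT turned to 0.57 with edgeR and 1.19 with DESeq2 in ATG12-/-, and to 0.80 and 0.85 in wild type.

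The labels do not say whether the replicate numbers pair the libraries. Correlations of same-numbered deviations were -0.209 to 0.144 over 9 pairs of vesicle groups, of which 1 passed 0.1. They were -0.225 to 0.185 over 9 pairs of cell groups, of which 3 did, and -0.0713 to 0.158 over 9 pairs of vesicles with cells of a genotype, of which 1 did. Wild type vesicles with ATG7-/- cells reached 0.198. Differently numbered libraries were not correlated, so these values cannot show whether libraries were paired. With the replicate block the ATG7-/- cell count was 1, and tRNA-Arg-CCT-4-1 in ATG12-/- vesicles had an adjusted p of 0.0558. Depth limits tRNA-His-GTG-2-1 and tRNA-Arg-TCT-4-1, which had as few as 1 and 3 reads in a cell library.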
